A study of Homo sapiens with 9 samples.

Results

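The Src-family kinases are membrane-anchored tyrosine kinases that relay signals from integrins and from growth factor and immune receptors. Each is held inactive when a tyrosine in its tail is phosphorylated, which is the work of the kinase CSK, and is freed when a phosphatase removes that phosphate. SRC, YES1 and FYN are made in most tissues, LYN and LCK are best known from blood cells (LYN in B cells and myeloid cells, LCK in T cells), and FRK is a related kinase found mainly in epithelia. The 7 genes described here, 6 kinases and their regulator CSK, were picked by symbol from 57733 genes, because LYN was among the genes with less new RNA in one KDM6A knockout clone; the change of LYN in that clone is therefore given without a test.

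New RNA was measured in PANC-1, a human pancreatic ductal carcinoma cell line. Clones KO C22 and KO C28 had been targeted at KDM6A with CRISPR/Cas9, and the control, called WT here, was PANC-1 that per the labels carried no guide RNA; each knockout is 1 clone, so an effect of the lost gene and a trait of the clone cannot be told apart. In Bru-seq, cells were given 2 mM bromouridine for 30 min and collected with a chase of 0 h, so that the captured RNA was that made during labelling (replicates 1 and 2 of each line). In BruUV-seq, cells with the same label also received 100 J/m2 of UV light, whose DNA lesions stop RNA polymerase and leave signal near the starts of genes (1 library of each line). Whether replicates came from separate cultures is not stated in the labels, and p-values measure the spread between these libraries only.

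The 8 deeper libraries held 14.4 to 31.1 M reads in genes, with 9.93% to 20.0% of reads outside genes. Bru-seq KO C28 replicate 2 stood apart, with 5.64 M reads in genes and 46.5% outside, so the KO C28 values that it moved most are given with and without it. KDM6A itself had 287, 427 and (BruUV-seq) 125 CPM (counts scaled to library size) in KO C22, 337, 65.9 and 201 CPM in KO C28, and 322, 276 and 203 CPM in WT; reads over the gene body need not fall when a coding exon is edited, and the labels do not give the edit. The epithelial keratins KRT8, KRT18 and KRT19 ranged from 24.6 to 766 CPM, and KRT7 from 1.33 to 14.6 CPM, each with reads in every library. Of 17 blood-cell markers, 12 stayed below 1 CPM in every library, and HBB was at 0 throughout.

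The sequence before the start differed widely among the members. The RefSeq table used here (GRCh38.p14) holds a promoter for 5 of the 7 genes, all but LYN and SRC. YES1, FYN and FRK are printed here as the 250 bases before the listed start, 5′ to 3′ on the gene's strand with CG pairs in capitals, because they set the kinase with the highest median level beside weakly transcribed ones.
YES1: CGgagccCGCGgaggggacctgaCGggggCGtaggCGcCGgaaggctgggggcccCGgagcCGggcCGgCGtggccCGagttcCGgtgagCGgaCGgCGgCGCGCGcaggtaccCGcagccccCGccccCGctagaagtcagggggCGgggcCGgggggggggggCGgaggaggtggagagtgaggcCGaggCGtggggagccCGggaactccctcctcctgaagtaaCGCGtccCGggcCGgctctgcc
FYN: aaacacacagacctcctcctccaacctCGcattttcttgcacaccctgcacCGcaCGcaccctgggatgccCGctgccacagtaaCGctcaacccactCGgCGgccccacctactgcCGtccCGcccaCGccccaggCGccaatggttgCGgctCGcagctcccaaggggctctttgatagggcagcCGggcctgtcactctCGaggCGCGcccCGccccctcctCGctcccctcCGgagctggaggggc
FRK: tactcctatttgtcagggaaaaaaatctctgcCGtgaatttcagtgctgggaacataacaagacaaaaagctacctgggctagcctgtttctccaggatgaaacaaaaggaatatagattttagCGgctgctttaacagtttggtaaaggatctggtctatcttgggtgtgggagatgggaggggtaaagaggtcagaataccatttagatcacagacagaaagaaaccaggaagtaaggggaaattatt
The YES1 stretch, chr18:812243-812492, held 32 CG pairs, a number reached by 9.52% of 35116 RefSeq promoters of that length, whose median was 11. The RefSeq start of YES1 lies 304 bases inside the gene of the deposited tables, so the stretch falls within that gene. FYN, at chr6:111873453-111873702 and the first of its entries, held 20, and 32.4% of promoters had at least as many; its entry 381 bases inside the gene held 45, reached by 0.589% of promoters, and its entries 3 and 4 held 6 and 0. FRK, at chr6:116060892-116061141, held 2, and 22.9% of promoters had that number or fewer. The RefSeq start of FRK lies at -133 bases from the start in the deposited tables, outside the gene. The CSK entry held 4 pairs and the LCK entry at its gene's start held 7, while CSK was the second most transcribed gene of the 7 by median. The CSK start in RefSeq lies 6487 bases inside the gene of the deposited tables, so its window is not the sequence before that gene. Whether CG content follows the level was not tested, and these counts describe the listed windows only.

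By position in the deposited tables (GRCh38), LYN (ENSG00000254087.7) spans chr8:55879813-56014168 on the plus strand and 3 small genes with 42 reads in all lie within it. YES1 (ENSG00000176105.13) lies on the minus strand at chr18:721588-812546, FYN (ENSG00000010810.17) on the minus strand at chr6:111660332-111873452 and FRK (ENSG00000111816.7) on the minus strand at chr6:115931149-116060758. SRC (ENSG00000197122.11) lies on the plus strand at chr20:37346154-37406050, LCK (ENSG00000182866.16) on the plus strand at chr1:32251239-32286165 and CSK (ENSG00000103653.16) on the plus strand at chr15:74782057-74803198. Reads were counted over gene bodies, introns included, from 21.1 kb for CSK to 213 kb for FYN; the counted length was shorter than the span for LYN (132 of 134 kb) and YES1 (89.2 of 91.0 kb). Over all 9 libraries YES1 gathered 24515 reads, SRC 4726, CSK 4052, LYN 3873, FYN 2129, FRK 847 and LCK 90.

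Per length, YES1 dominated the family. Levels between genes are compared in RPKM, the reads per kb of gene scaled to the library total, as the authors deposited it. Over the 9 libraries the median was 1.35 RPKM for YES1, 0.718 for CSK, 0.247 for SRC, 0.0680 for LYN, 0.0389 for FYN, 0.0332 for FRK and 0.00717 for LCK. Among the 6 Bru-seq libraries the ranges of CSK (0.555 to 0.922 RPKM) and SRC (0.119 to 0.513 RPKM) did not overlap, whereas every other pair of neighbours in this order overlapped. YES1 was the highest of the 7 in 7 of 9 libraries; CSK was above it in the BruUV-seq libraries of KO C22 and KO C28.

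**Figure D1:**
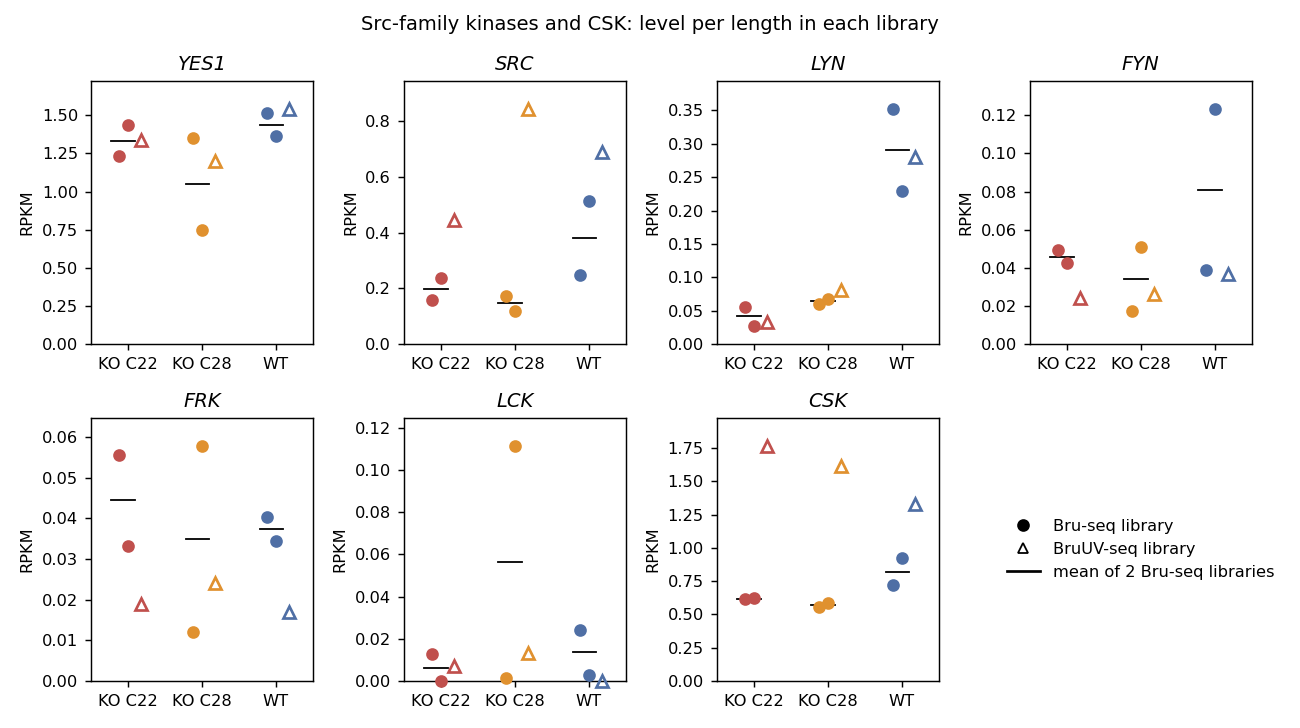
RPKM (vertical axis, linear, 1 panel per gene with its own scale) of YES1, SRC, LYN, FYN, FRK, LCK and CSK in KO C22, KO C28 and WT; filled circles are Bru-seq libraries, open triangles BruUV-seq libraries and bars the mean of the 2 Bru-seq libraries. All 6 LYN points of the clones lie at or below 0.0810 RPKM and all 3 WT points at or above 0.230 RPKM, while the Bru-seq points of KO C22 and WT interleave for YES1.

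LYN new RNA was lower in both clones than in WT, in both assays. LYN read 0.0559 and 0.0280 RPKM in Bru-seq and 0.0336 RPKM in BruUV-seq of KO C22, 0.0608 and 0.0680 RPKM in Bru-seq and 0.0810 RPKM in BruUV-seq of KO C28, and 0.352 and 0.230 RPKM in Bru-seq and 0.279 RPKM in BruUV-seq of WT. No clone library reached the lowest WT library, and the clones did not overlap with WT in either assay. The Bru-seq mean was 0.0419 ± 0.0198 RPKM in KO C22 and 0.0644 ± 0.00513 RPKM in KO C28, against 0.291 ± 0.0862 RPKM in WT (SD, n = 2 each). The reads behind these levels were 169, 129 and (BruUV-seq) 71 in KO C22, 148, 95 and 206 in KO C28, and 1207, 908 and 940 in WT, and 5.18% of the 20819 genes tested were likewise below WT without overlap in both assays and both clones.

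Fitted over all 9 libraries with a term for the assay, LYN was lower in KO C22 than in WT by a log2 fold change of -2.70 (SE 0.42), a 6.51-fold difference. In KO C28 the log2 fold change was -2.00 (SE 0.41) and LYN did not pass 0.05 after adjustment over all genes (edgeR quasi-likelihood test, Benjamini-Hochberg adjusted p = 0.110, unadjusted p = 0.000402). Both clones are set against the same WT libraries, so the values are not independent of each other. Over 15 alternative settings the KO C28 value lay between -2.22 and -1.73 with adjusted p between 0.000476 and 0.728, and passed in 2 of them: with DESeq2 (log2 fold change -1.90, adjusted p = 0.000476) and with no filter on low counts (-1.97, adjusted p = 0.0178). Without Bru-seq KO C28 replicate 2 it was -2.03 (SE 0.40, adjusted p = 0.0968). The blood-cell markers summed to 9.68, 2.48 and (BruUV-seq) 6.40 CPM in KO C22, 2.68, 55.1 and 2.42 CPM in KO C28, and 2.88, 4.22 and 3.54 CPM in WT, so that the clones overlapped with WT in Bru-seq. In a bulk culture, fewer cells transcribing LYN and less LYN transcription per cell cannot be told apart.

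Between the clones, LYN stood higher in KO C28 than in KO C22 in each assay, with 9.44 and 11.8 CPM against 9.14 and 5.72 CPM in Bru-seq and 11.6 against 5.47 CPM in BruUV-seq. The log2 fold change of KO C28 over KO C22 was 0.70 (SE 0.40) and did not pass (edgeR adjusted p = 0.837, from 0.448 to 1 over 15 alternative settings). Libraries were higher in KO C28 without overlap in both assays for 8% of all genes tested. The low LYN level of KO C22 led to the choice of the genes. That choice alone favours a higher value in KO C28, so neither the test nor the lack of overlap is independent of it.

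Within each library, LYN held a smaller share of the family in the clones. LYN made up 3.57%, 1.58% and (BruUV-seq) 1.802% of the summed RPKM of the 6 kinases in KO C22, 3.76%, 5.89% and 3.70% in KO C28, and 15.9%, 10.1% and 10.9% in WT. Its rank among the 6 was 3 to 5 in the clones and 2 or 3 in WT. YES1 held 78.8%, 80.9% and 71.6% in KO C22, 83.6%, 64.7% and 54.9% in KO C28, and 68.3%, 60.1% and 60.1% in WT, so that KO C28 overlapped with WT and KO C22 did not. The shares within a library are tied, so a lower share of LYN raises those of the other kinases. The RPKM of YES1 itself in KO C22 overlapped with WT in Bru-seq and lay below WT in BruUV-seq. Summed over the 6 kinases, the level was 1.57, 1.77 and (BruUV-seq) 1.87 RPKM in KO C22. It was 1.62, 1.15 and 2.19 RPKM in KO C28, against 2.22, 2.26 and 2.56 RPKM in WT. In RPKM the highest clone library stayed below the lowest WT library. This separation depended on the scaling. In CPM per kb of gene, the sum in Bru-seq KO C22 replicate 2 lay above that in WT replicate 1, so KO C22 overlapped with WT.

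The ratio of LYN to YES1 separated clones and WT in every library. It was 0.0453, 0.0195 and (BruUV-seq) 0.0252 in KO C22, 0.0449, 0.0910 and 0.0674 in KO C28, and 0.232, 0.169 and 0.181 in WT. The ratio of LYN to SRC was 0.351, 0.119 and 0.0753 in KO C22, 0.351, 0.573 and 0.0962 in KO C28, and 1.42, 0.447 and 0.406 in WT. Here the clones and WT overlapped through Bru-seq KO C28 replicate 2. In KO C22 both ratios, like the share of LYN, carry the LYN level that led to the choice of the genes. They are therefore no separate support for it. The part of all genes whose ratio to YES1 separated the clones from WT was not computed.

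Of the paralogues, YES1, which shares most of its roles at cell contacts with SRC and FYN, had the log2 fold change nearest to 0 in KO C22. YES1 read 1.23, 1.44 and (BruUV-seq) 1.34 RPKM in KO C22 and 1.35, 0.748 and 1.20 RPKM in KO C28, against 1.51, 1.36 and 1.54 RPKM in WT. KO C22 overlapped with WT in Bru-seq, whereas KO C28 lay below WT in both assays, as 14% of all genes tested did. The log2 fold change was 0.07 (SE 0.36) for KO C22 over WT and -0.40 (SE 0.36) for KO C28 over WT (edgeR adjusted p = 0.998 and 0.705); without Bru-seq KO C28 replicate 2 the KO C28 value was -0.22.

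SRC, the founding member, with roles in adhesion and migration, varied among the WT libraries. SRC read 0.159, 0.236 and (BruUV-seq) 0.446 RPKM in KO C22 and 0.173, 0.119 and 0.842 RPKM in KO C28, against 0.247, 0.513 and 0.687 RPKM in WT. In RPKM the Bru-seq libraries of both clones lay below both WT libraries (in CPM, KO C22 overlapped with WT), but in BruUV-seq KO C28 was above WT. How many of all genes lay below WT in Bru-seq alone was not computed. The log2 fold change over both assays was -0.64 (SE 0.49) for KO C22 and -0.76 (SE 0.50) for KO C28 (edgeR adjusted p = 0.989 and 0.598), and in Bru-seq alone that of KO C28 was -1.45 (SE 0.71, adjusted p = 0.728). Leaving out WT replicate 2 brought the fit of both assays to -0.11 (KO C22) or -0.30 (KO C28), whereas leaving out Bru-seq KO C28 replicate 2 brought the KO C28 value to -0.46.

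FYN, which acts at adhesions and in T cell and neuronal signalling, was transcribed at a low level. FYN read 0.0494, 0.0424 and (BruUV-seq) 0.0241 RPKM in KO C22 and 0.0173, 0.0512 and 0.0263 RPKM in KO C28, against 0.0389, 0.123 and 0.0369 RPKM in WT. WT replicate 2, with 785 reads against 215 in WT replicate 1, was the highest library, and the groups overlapped in Bru-seq. In the fit of both assays KO C22 stood at a log2 fold change of -0.57 (SE 0.59) and KO C28 at -0.94 (SE 0.59) (edgeR adjusted p = 0.993 and 0.586), and without WT replicate 2 these were 0.09 and -0.34. Without Bru-seq KO C28 replicate 2 the KO C28 value was -1.37.

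FRK, the kinase found mainly in epithelia, was lower still by its median. FRK read 0.0557, 0.0332 and (BruUV-seq) 0.0188 RPKM in KO C22 and 0.0122, 0.0578 and 0.0241 RPKM in KO C28, against 0.0404, 0.0343 and 0.0170 RPKM in WT. In CPM, KO C22 lay above WT in both assays, as did 10.2% of all genes tested, while in RPKM the Bru-seq libraries overlapped. Fitted log2 fold changes were 0.40 (SE 0.69) for KO C22 and 0.17 (SE 0.69) for KO C28 (edgeR adjusted p = 0.998 and 0.941), and without Bru-seq KO C28 replicate 2 the KO C28 value was -0.49.

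LCK, the T cell kinase that phosphorylates the antigen receptor complex, was close to the counting floor. LCK had 10, 0 and (BruUV-seq) 4 reads in KO C22 and 1, 41 and 9 reads in KO C28, against 22, 3 and 0 reads in WT. A count of 0 allows up to 3 reads by counting error alone, and only Bru-seq KO C28 replicate 2 and WT replicate 1 held more than 10. In the fit the log2 fold change was 0.28 (SE 1.8) for KO C22 and 2.49 (SE 1.77) for KO C28 (edgeR adjusted p = 0.999 and 0.624), and without Bru-seq KO C28 replicate 2 that of KO C28 was -0.16. In that library the blood-cell markers also summed highest, to 55.1 CPM, against 2.42 to 9.68 CPM in the other 8 libraries, with SPI1 at up to 14.7, ITGAM at up to 13.5 and CSF1R at up to 11.4 CPM over the libraries. This rise was not particular to blood-cell markers. The 4 keratins summed to 2049 CPM there and 5 endothelial markers to 25.9 CPM, against at most 1346 and 5.19 CPM elsewhere. The sum of 5 fibroblast markers was 15.5 CPM there, below the 38.5 CPM of BruUV-seq KO C22. The defining T cell markers CD3D, CD3E and CD2 did not exceed 0.743 CPM in any library. The part of the blood-cell markers in the LCK value was not tested.

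CSK, the kinase that phosphorylates the inhibitory tail of the others, read 0.616, 0.622 and (BruUV-seq) 1.77 RPKM in KO C22 and 0.555, 0.588 and 1.62 RPKM in KO C28, against 0.718, 0.922 and 1.33 RPKM in WT. In Bru-seq the RPKM of both clones lay below WT, and in BruUV-seq that of both clones lay above it. In CPM, KO C22 overlapped with WT in Bru-seq. The share of all genes with such an order was not computed. The log2 fold change over both assays was 0.05 (SE 0.38) for KO C22 and -0.24 (SE 0.38) for KO C28 (edgeR adjusted p = 0.999 and 0.832).

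Besides LYN in KO C22, which led to the choice of the genes, 0 of the other 6 members passed in KO C22 over WT, and 0 of 7 passed in KO C28 over WT. Across all genes tested 0.178% and 0.125% passed in these comparisons (edgeR quasi-likelihood test). At an unadjusted p under 0.05 there were 0 of the other 6 in KO C22 and 1 of 7, LYN, in KO C28, where 5.86% (KO C22) and 10.5% (KO C28) of all genes tested had such a p, and DESeq2 called the same numbers. The median log2 fold change of the 7 was 0.05 for KO C22 and -0.40 for KO C28, against 0.02 and -0.06 over all genes tested. Without Bru-seq KO C28 replicate 2 all 7 members were below 0 in KO C28, with a median of -0.46, and 0 of 7 passed. Among them LCK stood at -0.16 and YES1 at -0.22. The share of all genes below 0 and their median in that fit were not computed, so a change of the family cannot be read from this count. Between KO C28 and KO C22, 0 of 7 passed, as did 0% of all genes; at an unadjusted p under 0.05 there were 0 of 7, against 5.71% of all genes, and DESeq2 called 0.

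**Figure D2:**
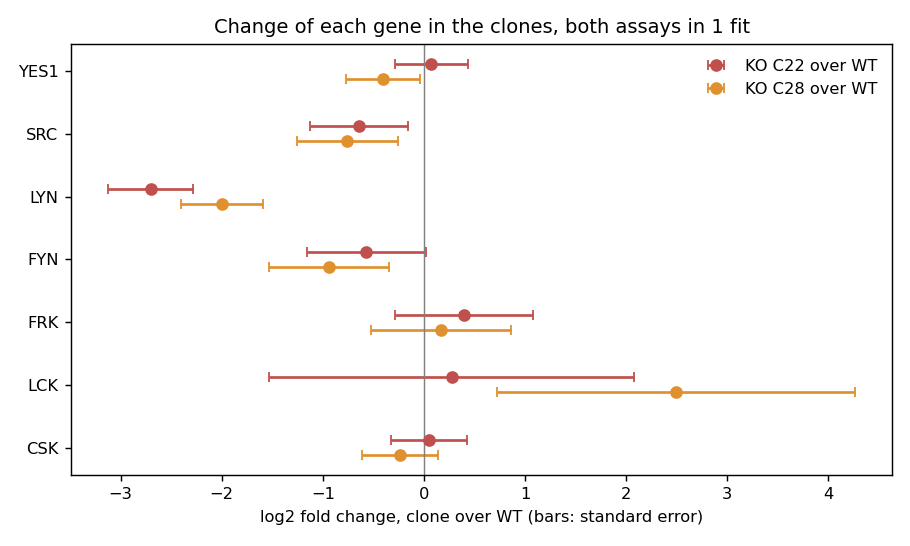
Log2 fold change of each gene over WT (horizontal axis) in KO C22 and KO C28 from the edgeR fit of all 9 libraries, with bars of 1 standard error; genes run down the page. LYN lies at -2.70 in KO C22, the value that led to the choice of the genes, and at -2.00 in KO C28. YES1 lies at 0.07 and -0.40, CSK at 0.05 and -0.24, and LCK has standard errors of 1.8 and 1.77.

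The values of the genes around LYN were set beside those of LYN. LYN was picked for its low value in KO C22 and these genes were not, so a gap there follows in part from the choice. Of 35 genes within 1 Mb of LYN, 10 were tested and 7 had a mean of at least 100 reads, and 0 of the 10 passed in either clone (edgeR; 0 in KO C22 and 1 in KO C28 at an unadjusted p under 0.05, which 5.86% and 10.5% of all genes reached; 0 and 0 with DESeq2). TGS1, the neighbour upstream and an RNA cap methyltransferase, read 2.47, 1.91 and (BruUV-seq) 1.81 RPKM in KO C22 and 2.90, 0.629 and 1.98 RPKM in KO C28, against 3.13, 2.66 and 2.38 RPKM in WT. Its log2 fold change was -0.21 (SE 0.47) for KO C22 and -0.56 (SE 0.48) for KO C28, and without Bru-seq KO C28 replicate 2, by far its lowest library, the KO C28 value was -0.14. The ratio of LYN to TGS1 was 0.0227, 0.0146 and (BruUV-seq) 0.0186 in KO C22, 0.0210, 0.108 and 0.0410 in KO C28, and 0.112, 0.0862 and 0.117 in WT. All clone libraries but Bru-seq KO C28 replicate 2 lay below WT.

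Of the further neighbours, TMEM68 had log2 fold changes over WT of -0.26 (SE 0.53, KO C22) and -0.54 (SE 0.53, KO C28), and RPS20, a ribosomal protein gene, -0.18 and 0.50; without Bru-seq KO C28 replicate 2 the KO C28 values were -0.09 for TMEM68 and -0.06 for RPS20. PLAG1, a zinc finger transcription factor, had -0.14 (SE 0.47, KO C22) and 0.66 (SE 0.48, KO C28); without Bru-seq KO C28 replicate 2 the KO C28 value was 1.01 (edgeR adjusted p = 0.645). CHCHD7 had -0.44 and -0.19 (-0.11 without that library), and IMPAD1 -0.46 and -0.35 (-0.21 without it). XKR4, whose start lies at -777 kb from that of LYN, stood at 1.66 (SE 1.18) in KO C22; in KO C28 it stood at 3.05 (SE 1.23), where 429 of its reads came from replicate 2, and without that library the KO C28 value was 1.44. Among these 7 neighbours the lowest log2 fold change was -0.46 (KO C22) and -0.56 (KO C28), beside -2.70 and -2.00 for LYN.

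**Figure D3:**
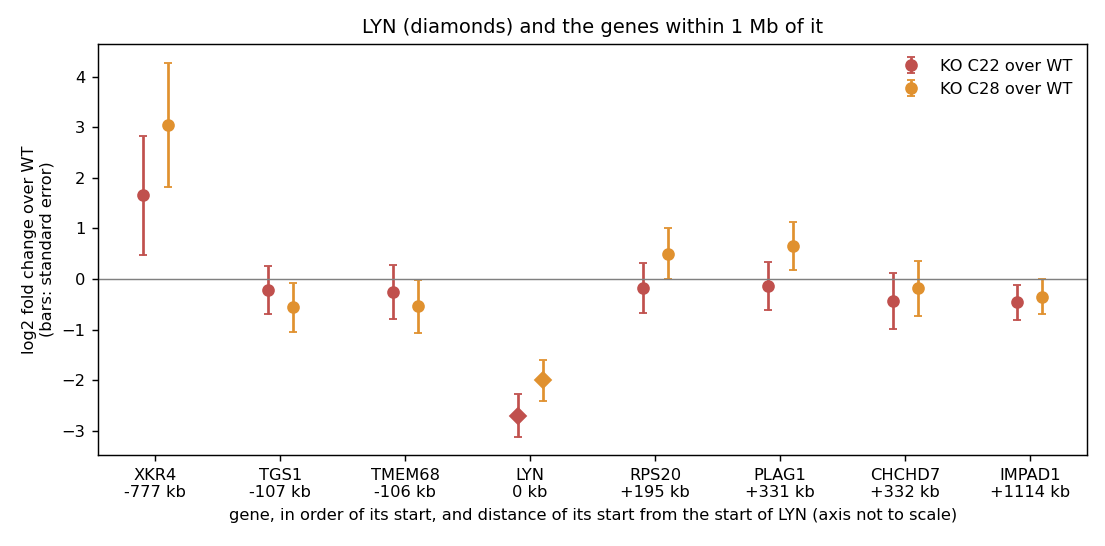
Log2 fold change over WT (vertical axis, with bars of 1 standard error) of LYN (diamonds) and the 7 genes within 1 Mb that had a mean of at least 100 reads, in order along the chromosome with the distance of their starts from that of LYN in kb. LYN lies at -2.70 in KO C22 and -2.00 in KO C28, and its neighbours lie at -0.56 or above in both clones.

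The genes whose pattern over the 9 libraries was most like that of LYN lay on other chromosomes. Likeness was the Pearson correlation of log2 CPM, centred within each assay, over 11810 genes with a mean of at least 100 reads; the libraries share lines and depth, so it is a description. The closest was MTMR8, a myotubularin-related gene on chromosome X, with r = 0.985. MTMR8 had 13.8, 13.8 and (BruUV-seq) 6.55 CPM in KO C22 and 14.8, 16.2 and 9.73 CPM in KO C28, against 29.9, 28.6 and 16.5 CPM in WT. The clones did not overlap with WT in either assay, as for 5.18% of all genes tested, and MTMR8 was picked for its likeness to LYN. TMEM41A (r = 0.952), RCSD1 (0.951), AFAP1-AS1 (0.943) and MAGI2-AS3 (0.940) followed. AFAP1-AS1 had 0.108 CPM or less in every clone library, against 53.0, 65.7 and (BruUV-seq) 104 CPM in WT; AFAP1-AS1 and MAGI2-AS3 are antisense RNAs, and whether counting kept strands apart is not stated. Within the family the correlation with LYN was 0.43 for SRC, 0.33 for FYN, 0.04 for YES1 and -0.05 for CSK; FRK and LCK were below the mean of 100 reads.

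The genes that work with these kinases were given as 5 lists of 73 genes, 66 of which were tested. In KO C22 over WT 0 passed (edgeR; 2 at an unadjusted p under 0.05, which 5.86% of all genes reached; 0 with DESeq2), with 43 above WT, 23 below and a median log2 fold change of 0.24, against 0.02 over all genes. In KO C28 over WT 0 passed (edgeR; 2 at an unadjusted p under 0.05, which 10.5% of all genes reached; 2 with DESeq2), with 30 above, 36 below and a median of -0.11, against -0.06 over all genes. Without Bru-seq KO C28 replicate 2, 67 were tested in KO C28, with 37 above WT, 30 below and a median of 0.03. Genes named from each list are the pair with the smallest p in each clone, or the single gene tested.

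Of 4 other Src-type kinases only PTK6 had enough reads to be tested. PTK6, an epithelial kinase, had a log2 fold change of 0.66 (SE 0.79, KO C22) and 1.32 (SE 0.79, KO C28), and did not pass in either clone (edgeR adjusted p = 0.993 and 0.569); without Bru-seq KO C28 replicate 2 the KO C28 value was 0.48.

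Among the inhibitors and their scaffolds, 6 of 8 were tested, with 4 below WT in each clone. CBLC, an epithelial ubiquitin ligase of the CBL family, had 4, 3 and (BruUV-seq) 7 reads in KO C22 and 0, 18 and 25 reads in KO C28, against 29, 199 and 126 reads in WT. The log2 fold change of KO C22 was -4.19 (SE 1.41, edgeR adjusted p = 0.548) and that of KO C28 was -2.08 (SE 1.27, adjusted p = 0.574). Without Bru-seq KO C28 replicate 2 the KO C28 value was -3.91. SOCS3, a cytokine-induced inhibitor, had 28.7, 8.34 and (BruUV-seq) 45.1 CPM in KO C22, against 56.2, 40.7 and 111 CPM in WT, and a log2 fold change of -1.36 (SE 0.49, edgeR adjusted p = 0.632). CBLB, a ubiquitin ligase, had -0.56 (SE 0.48) in KO C28, and -0.17 without that library.

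Of the phosphatases reported to act on Src-family kinases, 10 of 11 were tested, with 8 above WT in KO C22 (median 0.23) and 4 above in KO C28 (median -0.33; -0.03 over 11 without Bru-seq KO C28 replicate 2). PTPRE had a log2 fold change of -1.01 and PTPN6, the phosphatase SHP-1, -0.77 in KO C22. PTPRJ had 0.54 (SE 0.53) and PTPRF -0.48 (SE 0.48) in KO C28, and without that library PTPRJ had 0.90 and PTPRF -0.996. PTPRE stood at -0.70 in KO C28, and at -2.21 without that library. Over all 9 libraries none of the 10 passed in either clone, none reached an unadjusted p under 0.05 by edgeR, and DESeq2 called 0.

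Adaptors and substrates, the largest list, had 39 of 40 members tested. In KO C22, 28 were above WT and 11 below (median 0.25), with GAB2, a docking adaptor, at -0.89 (SE 0.43) and CDCP1, a membrane substrate of SRC, at 1.05 (SE 0.55). CDCP1 had 418, 845 and (BruUV-seq) 416 CPM in KO C22, against 184, 427 and 201 CPM in WT, and overlapped in Bru-seq. In KO C28, 18 were above WT and 21 below (median -0.07), and without Bru-seq KO C28 replicate 2, 24 were above and 15 below (median 0.07). Over all 9 libraries the smallest p of the list were those of TNS1, a focal adhesion protein, at 3.61 (SE 1.24) and VAV3, a guanine nucleotide exchange factor, at 3.50 (SE 1.22; edgeR adjusted p = 0.457 for both). These were the genes that DESeq2 called. TNS1 had 0.701, 28.4 and (BruUV-seq) 2.08 CPM in KO C28, against 0.870, 0.820 and 0.379 CPM in WT, and VAV3 had 1.72, 24.5 and 0.619 CPM, against 1.56, 0.656 and 0.0422 CPM in WT. The high value of both was that of Bru-seq KO C28 replicate 2, without which TNS1 stood at 1.27 and VAV3 at 1.41.

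For lipid anchoring, transport and chaperones all 10 genes were tested, with 4 above WT in KO C22 (median -0.03) and 5 in KO C28 (median 0.00; 6 above and median 0.10 without Bru-seq KO C28 replicate 2). UNC119, which carries lipid-anchored kinases to the membrane, had a log2 fold change of -1.21 in KO C22, and the chaperone HSP90AA1 had 1.25 there. HSP90AA1 had 217, 262 and (BruUV-seq) 2747 CPM in KO C22, against 327, 104 and 362 CPM in WT, so that the BruUV-seq library alone lay far above the rest. The cochaperone CDC37 had 0.95 (SE 0.47, edgeR adjusted p = 0.509) and the chaperone HSP90AB1 0.92 in KO C28, and without Bru-seq KO C28 replicate 2 CDC37 had 0.41 and HSP90AB1 0.24.

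UV light shifts nascent reads toward gene starts, and the BruUV-seq libraries were set against Bru-seq to see how each member responded. SRC had 0.446, 0.842 and 0.687 RPKM in BruUV-seq of KO C22, KO C28 and WT, against 0.159 and 0.236 (KO C22), 0.173 and 0.119 (KO C28) and 0.247 and 0.513 RPKM (WT) in Bru-seq. In all 3 lines the BruUV-seq library was above both Bru-seq libraries of its line, by 1.03, 2.35 and 0.78 log2 CPM over their mean. CSK, whose RPKM are given above, was above both in all 3 lines too, by 1.34 in KO C22, 1.30 in KO C28 and 0.54 in WT. The share of all genes above both in every line was not computed. The BruUV-seq libraries of CSK were all above its Bru-seq libraries, as for 10.1% of all genes tested. Those of SRC were not, since BruUV-seq KO C22 (0.446 RPKM) lay below Bru-seq WT replicate 2 (0.513 RPKM).

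The log2 fold change of BruUV-seq over Bru-seq was 1.38 (SE 0.42) for SRC and 1.07 (SE 0.32) for CSK. Neither passed (edgeR adjusted p = 0.110, from 0.0287 to 0.478 over 14 alternative settings, and 0.105, from 0.0287 to 0.452). Both passed with DESeq2 (1.29 and 0.98, adjusted p = 0.0287 for each); SRC also passed with no filter on low counts (adjusted p = 0.0372), and CSK without Bru-seq KO C28 replicate 2 (1.08, adjusted p = 0.0338). Without the BruUV-seq library of KO C28 the SRC value was 0.83 (adjusted p = 0.478). By edgeR 0 of 7 members passed (2 at an unadjusted p under 0.05, which 5212 of the 20819 genes reached; 2 with DESeq2), and 0.447% of all genes did.

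The other 5 members had log2 fold changes below 0 with UV light, and none passed. Values for BruUV-seq over Bru-seq were -0.08 (SE 0.31) for YES1, -0.17 (SE 0.34) for LYN, -0.998 (SE 0.53) for FYN, -1.14 (SE 0.63) for FRK and -1.91 (SE 1.78) for LCK, with edgeR adjusted p from 0.260 to 0.892. Without Bru-seq KO C28 replicate 2 FRK stood at -0.75 and LCK at -0.29. Over all genes the median ran from 0.63 for genes of up to 10 kb through -0.37 for 50 to 75 kb to -1.49 above 250 kb. Among genes of like length SRC stood at the 96.8th percentile, CSK at the 75.8th, LYN at the 72.3rd, YES1 at the 71.1st, FYN at the 44.5th, FRK at the 31.6th and LCK at the 7.89th. LYN and FRK, of nearly equal counted length (132 and 130 kb), took places on either side of the median of their length.

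**Figure D4:**
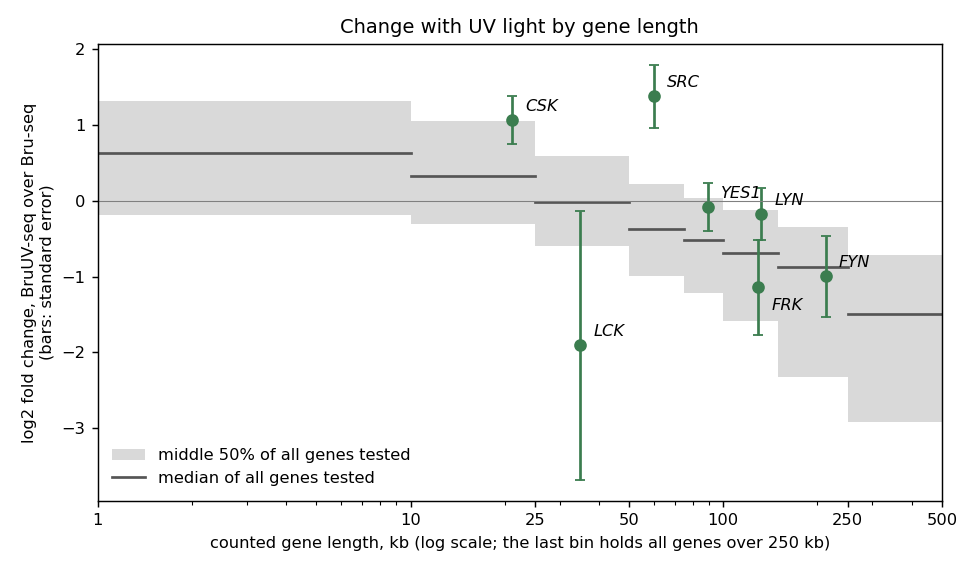
Log2 fold change of BruUV-seq over Bru-seq (vertical axis, bars of 1 standard error) against counted gene length in kb (log scale) for the 7 genes, over the median (line) and middle 50% (grey) of all genes tested in bins of length. SRC, at 1.38, lies above the grey band of its length, CSK at its upper edge, LYN and YES1 near the upper part of theirs, FYN and FRK within theirs and LCK below.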

How the data were processed

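Bru-seq and BruUV-seq libraries of PANC-1 were read from 9 deposited tables, 1 per library, each with an expected count (estimated reads over the gene body) and an RPKM per gene, both made by the authors. Per the submitters' processing notes, CASAVA 1.8.2, Bowtie2 2.3.3, STAR 2.5.3a and bedtools 2.16.2 were used, with hg38 and GRCh38 as builds; their roles and the annotation release are not given in the sources used here. Groups come from the labels.

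The expected counts were rounded to whole numbers and fitted with edgeR 4.0.16 (R 4.3.3): filterByExpr by line, TMM scaling, 1 coefficient per line and 1 for the assay, a quasi-likelihood F test per gene, and p adjusted by Benjamini-Hochberg over all 20819 genes tested, with 0.05 as the threshold. The common biological coefficient of variation was 63.4%. CPM are counts scaled by TMM; a standard error is the log2 fold change over the root of F. Reads outside genes were taken from the total that the RPKM imply. Alternatives were Bru-seq libraries alone, RLE and upper quartile factors, no filter on low counts, DESeq2 1.42.0, the replicate number as a block and each library left out. The code was tested on simulated counts. Promoter windows are RefSeq's (GRCh38.p14).

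The members, the lists and the rules were chosen with earlier results of these data known. Named genes are the members, in each list the genes that passed or otherwise the 2 with the smallest p in each clone, the neighbours of LYN within 1 Mb and at a mean of at least 100 reads, and the 5 genes most like LYN. Some genes of the lists are not reported here.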

Additional observations from a re-analysis of the deposited data

How the results depend on the processing

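For the 27 tested values (7 members in 4 comparisons, less LYN in KO C22), 394 alternative values were computed: 363 kept their direction and their side of the threshold, 25 turned in sign and 6 passed where the reported value did not. LYN was below WT in both clones in every one of 15 settings; in KO C22, where it was not tested, it ran from -2.97 to -2.56. Sign turned for LCK in KO C22 with Bru-seq alone (-1.10), CSK in KO C22 with Bru-seq alone (-0.22) and with no filter (-0.00094), and FRK in KO C28 with Bru-seq alone (-0.16). Leaving out 1 library gave ranges across 0 for KO C22 over WT in YES1 (-0.15 to 0.18), FYN (-0.94 to 0.088), LCK (-0.76 to 1.30) and CSK (-0.24 to 0.27). For KO C28 over WT they were FRK (-0.49 to 0.80), LCK (-0.16 to 3.38) and CSK (-0.55 to 0.012). For KO C28 over KO C22 they were SRC (-0.54 to 0.22), FYN (-0.80 to 0.22) and FRK (-0.88 to 0.46), and for BruUV-seq over Bru-seq YES1 (-0.18 to 0.053) and LYN (-0.33 to 0.0032).

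The number of genes passing depended on the setting. For KO C22 over WT it was 37, but 1 with Bru-seq alone, 272 with no filter, 348 with DESeq2 and 3 (without WT replicate 1) to 142 (without Bru-seq KO C28 replicate 2). For KO C28 over WT it was 26, but 1, 1100 and 711 in those settings, and 1 (without WT replicate 2) to 67 (without Bru-seq KO C28 replicate 2). For KO C28 over KO C22 it was 0, but 230 with no filter, 226 with DESeq2, and 0 to 18 (without Bru-seq KO C28 replicate 2). For BruUV-seq over Bru-seq it was 93 (89 higher, 4 lower), but 1 with RLE and 0 with upper quartile factors, which moved the median of all genes by -0.12, 2326 with no filter (975 higher, 1351 lower), 3866 with DESeq2 (1642 higher, 2224 lower) and 0 (without WT replicate 1) to 3305 (without Bru-seq KO C28 replicate 2). Of the 5 genes most like LYN, 2 stayed among the top 5 in the 6 Bru-seq libraries. Causes were not tested. Other omissions that moved these counts by over 1.5 times gave, for KO C22, 3 (WT replicate 2), 4 (BruUV-seq WT), 5 (BruUV-seq KO C22), 15 (KO C22 replicate 2) and 21 (BruUV-seq KO C28). For KO C28 they gave 6 (WT replicate 1), 1 (BruUV-seq WT), 1 (BruUV-seq KO C28), 13 (BruUV-seq KO C22), 17 (KO C28 replicate 1) and 55 (KO C22 replicate 2). For BruUV-seq every omission did: 142 without WT replicate 2, 494 without KO C22 replicate 2, and 0 or 1 without each of the others but those named above.

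The replicate numbers did not pair the libraries in the same way across the lines. Deviations of equal numbers correlated at 0.46 (KO C22 and WT), 0.04 (KO C28 and WT) and -0.38 (KO C28 and KO C22). With the replicate number as a block 46, 49, 0 and 903 genes passed in the 4 comparisons in the above order, and LYN in KO C28 was -1.97 (adjusted p = 0.0916). With the numbers of KO C28 crossed, an alternative chosen after seeing the data, 2 genes passed between the clones. LCK, with 90 reads in all, and a line with 3 libraries limit what could be detected.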
